A study of Mus musculus with 4 samples.

Results

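Microglia, the resident macrophages of the brain, owe their identity to a small set of DNA-binding proteins. PU.1 (encoded by Spi1), Runx1, Cebpa and Irf8 are needed for myeloid cells to form or to develop further, and they are shared by most macrophages. Sall1, Mef2a, Mef2c, Maf and Bhlhe41 act together with them in the tissue, and Sall1 is the factor most restricted to microglia within the myeloid lineage. These 9 genes were described here, out of 28692 in the gene table. They were chosen by name as lineage transcription factors, and all 9 were found under their symbols.

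Gene expression was measured in single myeloid cells of the cortex and hippocampus from 4 male C57BL/6J mice at postnatal day 90, with 1 library per mouse. Each mouse had received PBS through the tail vein, 24 h before sacrifice per the labels, although the methods of the study give a different interval. Cells were released in a cold Dounce homogeniser, mechanically and without enzyme, and live CD45+/CD11b+ cells were sorted by FACS, a gate that admits border macrophages and monocytes as well as microglia. All libraries form 1 group, so no condition could be compared, and the comparisons below are between cells of the same libraries.

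After quality control (a minimum of 400 genes per cell and no more than 10% of UMIs from mitochondrial genes), 13002 of 13138 cells remained. Cells with 10 or more UMIs (unique molecular identifiers, 1 per captured transcript) of the MHC class II genes Cd74, H2-Aa, H2-Ab1 and H2-Eb1 together were set aside as class II-high cells. They numbered 67, with 10, 12, 7 and 38 in replicates 1 to 4, and the other 12935 cells are called microglia. Summed UMIs of the microglia ranged from 5814237 to 11211445 per library, and those of the class II-high cells from 27434 to 141346. Levels are UMIs per 1000000 UMIs of the summed cells of a library (CPM), and 3′ counting takes 1 count per molecule, so levels were not divided by transcript length. Replicate 4 stood apart in its share of class II-high cells (1.20%, against 0.280%, 0.325% and 0.272%). The study notes that the sorter clogged during the last animal's sort, so that its cells warmed, went back on ice and were sorted again, but the labels do not tie that animal to a library. The study reports that its signature of ex vivo activation (genes switched on during cell isolation) was found almost only in that animal's cells. The part of this in the results was not tested. Between 6 and 21 cell barcodes were shared by each pair of libraries, at most 0.587% of the smaller library.

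The names of both classes were checked against marker lists. The 10 microglial markers together reached 41344 ± 633 CPM (SD, n = 4) in microglia, whereas 10 border macrophage markers reached 722 ± 195 CPM and 8 monocyte markers 480 ± 85.7 CPM. In class II-high cells the border macrophage list reached 21708 ± 6585 CPM, of which Apoe made up 92.4%, and the monocyte list 14169 ± 4392 CPM, of which Lyz2 made up 87.1%. Lyve1 and Vcan were at 0 there. The microglial list still reached 11656 ± 6591 CPM in these cells (range 6598 to 21220), so the class carries markers of several cell types and is given no cell type name. The 8 dendritic cell markers reached 364 ± 220 CPM there, of which Cd209a made up 85.3%, with Xcr1, Clec9a and Ccr7 at 0. The T and NK cell markers were at 0 in class II-high cells, and the 4 neutrophil markers in both classes.

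Short stretches of sequence show where the factors' own kinds of motif lie near their start sites. RefSeq promoter windows on GRCm38.p6 (250 bases before to 50 after the start) were at hand for 7 of the 9 genes, in 13 windows, but not for Spi1 and Maf. Mef2a, Bhlhe41 and Runx1 each carried a motif of their own family, shown 5′ to 3′ on the strand of the gene with the motif in capitals.
Mef2a, chr7:67372841-67372870, minus strand: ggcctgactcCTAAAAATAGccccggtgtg
Bhlhe41, chr6:145865556-145865585, minus strand: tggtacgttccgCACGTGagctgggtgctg
Runx1, chr16:92826029-92826058, minus strand: acctcataaacAACCACAgaaccacaagtt
The MEF2 motif of Mef2a began 2 bases before the start site and the E-box of Bhlhe41 153 bases before it. The RUNX motif of Runx1, read on the opposite strand, began 27 bases after its start, and another one followed at 35 bases. Of all 32851 windows, the MEF2 motif (its 10 letters stand in capitals above) was present on either strand in 0.110%, the E-box CACGTG in 7.15% and TGTGGTT in 5.27%. The other motifs searched were GAGGAAGT (PU.1, 3.20% of all windows), a pair of GAAA runs 2 bases apart (IRF, 3.44%), GGAA and GAAA 2 bases apart (a composite of ETS and IRF sites that can overlap either, 2.72%), TTGCGCAA (CEBP, 0.183%) and TGCTGAC (MAF, 4.67%), on both strands, and none of these was in a window of the 9 genes. The windows of Runx1 also held a CACGTG. These matches are letters in a window and say nothing about binding.

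All 9 factors were expressed in microglia of every library. Mef2c was the most abundant and Runx1 the least, a span from 984 ± 22.1 to 91.0 ± 12 CPM (SD, n = 4). The 9 genes together made up 3970, 3900, 3951 and 3846 CPM in replicates 1 to 4, a mean of 3917 ± 55.6 CPM, so their sum varied little among the mice. Within this sum the single genes varied more. On the log2 scale the SD between libraries ranged from 0.03 (Mef2c) to 0.31 (Bhlhe41), with a median of 0.13 over the 9 genes and of 0.11 over the 7644 genes at a mean of 10 CPM or more.

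**Figure D1:**
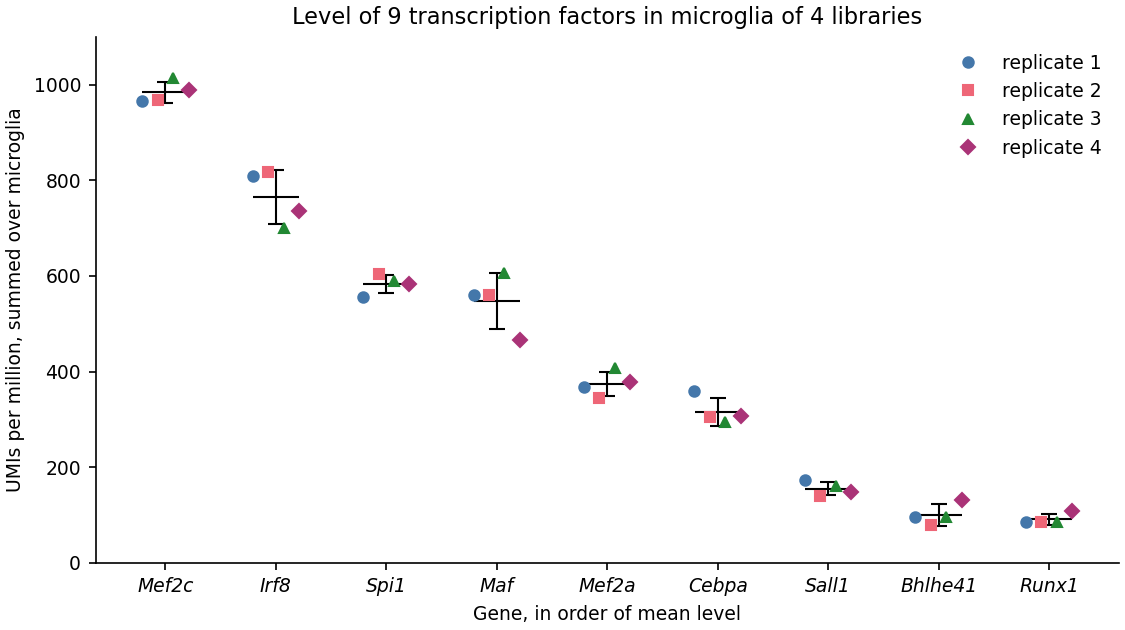
Level of each factor in microglia (vertical axis, CPM of the summed cells) for the 9 genes in order of mean level (horizontal axis). Coloured points are the 4 libraries and black bars the mean ± SD. Mef2c and Irf8 lie above the other genes in every library, and replicate 4 lies apart for Runx1.

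Among the factors shared by macrophages, Irf8 was the most abundant. Irf8 (chromosome 8, 120736358 to 120756694, GRCm38), which partners PU.1 on composite sites, was at 808, 816, 700.0 and 735 CPM in replicates 1 to 4. Spi1 (chromosome 2, 91082390 to 91115756), whose product PU.1 is the ETS factor that opens macrophage enhancers, was at 557, 604, 590 and 583 CPM. It was among the steadiest of the set, with an SD of 3.37% of the mean where counting alone gives 1.49%. Cebpa (chromosome 7, 35119293 to 35121928), a factor of myeloid differentiation, was at 358, 304, 294 and 307 CPM. Replicate 1 was the highest for Cebpa, but it did not stand apart by Dixon's range test, which compares the gap beside the most distant library with the whole range.

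Runx1 (chromosome 16, 92601466 to 92826149), a factor of the earliest blood and macrophage progenitors, was at 85.5, 84.6, 85.0 and 109 CPM. Replicate 4 was the highest and the other libraries lay within 1 CPM of each other, and Dixon's range test set it apart (ratio of gap to range 0.957). Runx1 was the only 1 of the 9 genes with a library apart. Over all 7644 genes at a mean of 10 CPM or more, 4.71% had a library apart, and replicate 4 was the library in 118 of these 360 genes.

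Among the factors with a role in the tissue, Mef2c (chromosome 13, 83504034 to 83667080), a MADS-box factor that restrains microglial inflammatory responses, was at 966, 968, 1014 and 989 CPM. Its SD was 2.25% of the mean, the smallest of the 9 genes. Its relative Mef2a (chromosome 7, 67231163 to 67372858) was at 368, 345, 407 and 377 CPM, so Mef2c was the dominant MEF2 transcript in every library. Mef2d averaged 24.5 ± 1.65 CPM, and Mef2b was at 0 UMIs in all microglia.

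Maf (chromosome 8, 115682942 to 115707794), a bZIP factor of mature macrophages, was at 559, 560, 606 and 466 CPM. Replicate 4 was the lowest. Sall1 (chromosome 8, 89027235 to 89044162), the zinc finger repressor that holds microglia in their own programme, was at 173, 139, 160 and 149 CPM. Replicate 1 was the highest and replicate 2 the lowest. Bhlhe41 (chromosome 6, 145858243 to 145865558), a repressor of the basic helix-loop-helix class also known as Dec2, was at 94.9, 78.2, 96.1 and 132 CPM. Bhlhe41 varied most, with an SD of 22.6% of the mean against 3.59% from counting, and replicate 4 was again the highest without standing apart.

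The order of the mean levels was Mef2c, Irf8, Spi1, Maf, Mef2a, Cebpa, Sall1, Bhlhe41 and Runx1. Ranges overlapped for 3 pairs of neighbours. Spi1 and Maf could not be ordered, since Spi1 was above Maf in 2 of 4 libraries, and Bhlhe41 was above Runx1 in 3 of 4. Mef2a and Cebpa overlapped in range, but Mef2a was the higher in 4 of 4 libraries. All other neighbours kept their order without overlap. Runx1 was above 94.0% and Mef2c above 99.6% of the genes in the table.

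At an equal depth of 1000 UMIs per cell, the share of cells with a UMI followed the same order. Each cell was thinned at random to 1000 UMIs, which 12671 of the 12935 microglia reached. A Mef2c UMI was then seen in 61.7 ± 1.19% of microglia, an Irf8 UMI in 52.5 ± 2.49% and a Spi1 UMI in 43.7 ± 1.46% (SD, n = 4). Maf was seen in 40.7 ± 3.04%, Mef2a in 30.6 ± 2.01% and Cebpa in 26.9 ± 2.2%. Sall1 was seen in 13.8 ± 1.26%, Bhlhe41 in 8.73 ± 1.97% and Runx1 in 8.43 ± 0.97%, both of the last with overlapping libraries. These 2 genes changed places at 2000 UMIs per cell (Runx1 16.0 ± 2.47%, Bhlhe41 15.2 ± 2.66%) and without thinning (19.8 ± 4.64% and 18.9 ± 4.87%). Without thinning the shares were 87.2 ± 4.64% for Mef2c and 30.7 ± 2.69% for Sall1, at median depths of 1905 to 2935 UMIs per microglial cell.

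These shares lay close to those of evenly expressed genes of the same level. If all cells of a library had the same chance per molecule, the Poisson share would be 63.3% for Mef2c, 42.4% for Maf, 14.1% for Sall1 and 9.53% for Bhlhe41. The variance of the UMI count per cell divided by its mean, which is 1 for Poisson counts, was 1.01 for Spi1, 1.05 for Sall1 and Irf8, 1.11 for Maf and Mef2c and 1.20 for Bhlhe41 (means of the 4 libraries). Bhlhe41 thus departed most from even expression among these genes, with a range of 1.13 to 1.25 over the libraries. Microglia thinned to 1000 UMIs showed 2.87 ± 0.0291 of the 9 genes per cell, and 2.43 ± 0.292% of them showed none. At 2000 UMIs per cell the mean was 4.47 ± 0.0348 genes and 0.0336 ± 0.0274% showed none, so the share of cells without any factor depends on the depth.

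The class II-high cells were compared with the microglia of the same library. Sall1 and Mef2c were lower in class II-high cells, and the other 7 factors did not pass the test. Sall1 counted 0, 5, 1 and 4 UMIs in the class II-high cells of replicates 1 to 4, equal to 0, 89.7, 36.5 and 28.3 CPM. Every one of these values was below every microglial library. In replicate 1 the count of 0 allows a level of up to 82.3 CPM (3 counts of 36439). The log2 fold change of Sall1 was -1.65 (SE 0.44, 95% interval -2.52 to -0.79), and the adjusted p was 0.00335 by edgeR's quasi-likelihood test on summed counts with the library as a block. The call rests on replicate 4, which held most of the cells, since without it the log2 fold change was -1.36 and the edgeR adjusted p 0.279. It was also lost after thinning to 1000 UMIs per cell (-2.01, 0.327).

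Mef2c was at 604, 466, 219 and 460 CPM in class II-high cells, from 119 UMIs in all. All of these lay below the microglial libraries, the lowest of which was at 966 CPM. The log2 fold change was -0.83 (SE 0.23, 95% interval -1.27 to -0.38), with an edgeR adjusted p of 0.00497. The call was lost without replicate 3 (log2 fold change -0.68, edgeR adjusted p 0.0686) and without replicate 4 (-0.90, 0.116). It was also lost after thinning to 1000 UMIs per cell (-0.59, 0.490), without the 1% of cells with most UMIs (-0.65, 0.170), and with 5 or more class II UMIs as the limit (-0.51, under the fold threshold).

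**Figure D2:**
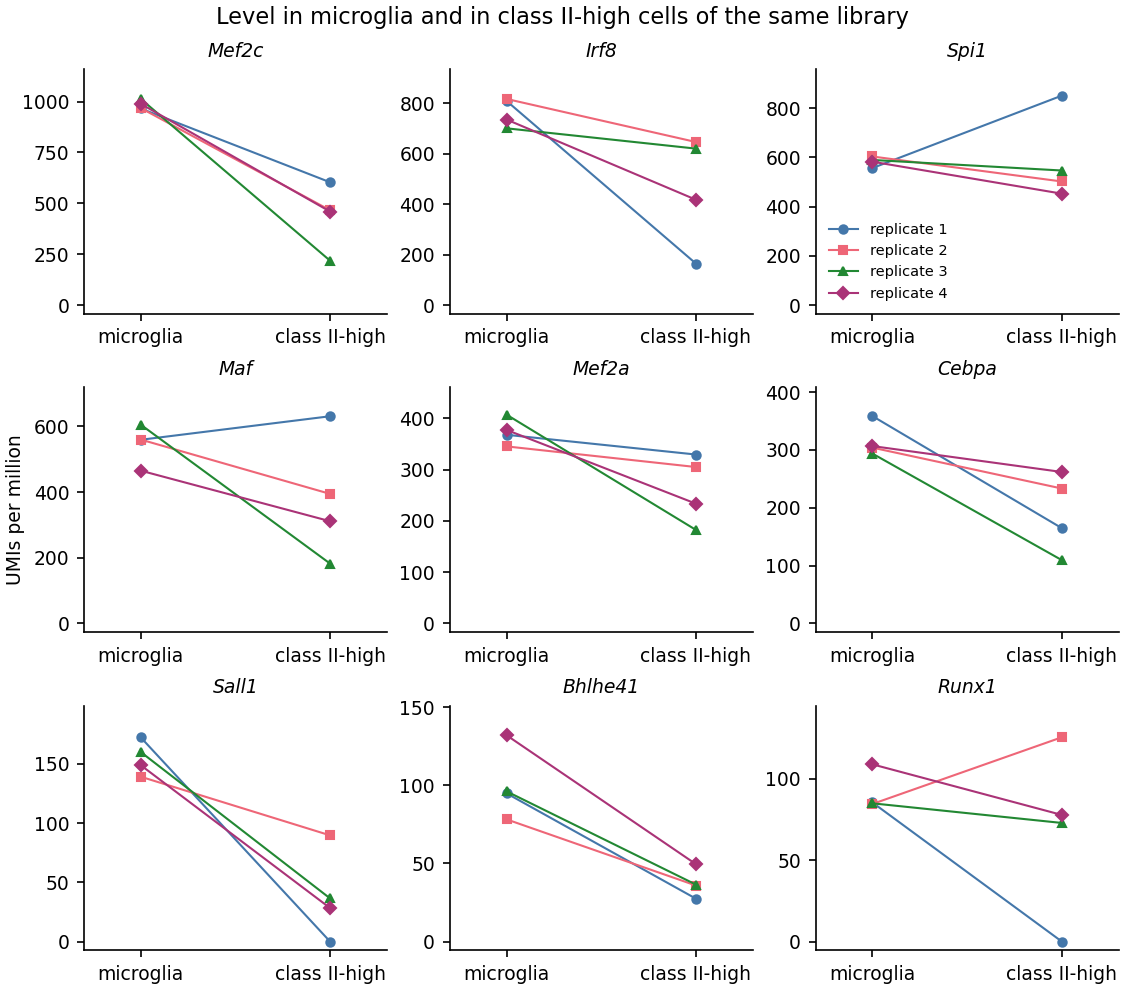
Level of each factor (vertical axes, CPM, scaled per gene) in microglia and in class II-high cells, with a line for each of the 4 libraries. All lines go down for Mef2c, Irf8, Mef2a, Cebpa, Sall1 and Bhlhe41, and at least 1 line goes up for Spi1, Maf and Runx1.

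Of 9566 genes tested, 758 were called (7.92%) at an adjusted p below 0.05 and an absolute log2 fold change above 0.58, of which 517 were higher (5.4%) and 241 lower (2.52%) in class II-high cells. Of the 9 factors, 0 were called higher and 2 lower. Their median log2 fold change was -0.25 beside -0.16 over all genes tested. The direction of the calls depended on the scaling. The TMM factor of the class II-high sums was -0.31 on the log2 scale. With library totals alone 401 genes were higher and 540 lower around a median of -0.47, Irf8 (-0.76, edgeR adjusted p 0.0112) and Bhlhe41 (-1.40, 0.0245) were called as well, and the sign of Spi1 turned. TMM over all genes tested, chosen after seeing the data, gave 348 higher and 362 lower around a median of -0.44, and DESeq2's size factors 438 and 358 around -0.33. Sall1 and Mef2c were called lower under each of these scalings.

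Among the shared macrophage factors, Spi1 was at 851, 502, 547 and 453 CPM in class II-high cells, with a log2 fold change of 0.26 (SE 0.22, 95% interval -0.17 to 0.68, edgeR adjusted p 0.614). Replicate 1 lay above and the others below their own microglia. Irf8 was at 165, 646, 620 and 417 CPM, below all microglial libraries, with a log2 fold change of -0.45 (SE 0.23, interval -0.89 to -0.0031, edgeR adjusted p 0.292). Cebpa was at 165, 233, 109 and 262 CPM, also below all microglial libraries. Its log2 fold change was -0.25 (interval -0.77 to 0.27). Runx1 counted 0, 7, 2 and 11 UMIs, and its log2 fold change of -0.04 had an interval of -0.81 to 0.74, wide enough to hold a change of either sign.

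Bhlhe41 counted 1, 2, 1 and 7 UMIs in class II-high cells, and all 4 libraries lay below the microglia. Its log2 fold change was -1.09 (SE 0.47, interval -2.0 to -0.18), which gave an unadjusted p of 0.0187 and an adjusted p of 0.162 by edgeR. Maf was at 631, 395, 182 and 311 CPM and Mef2a at 329, 305, 182 and 234 CPM. Their log2 fold changes were -0.21 (interval -0.66 to 0.25) and -0.20 (interval -0.69 to 0.30). In all, 6 of the 9 factors had every class II-high library below every microglial library and 0 had every one above. Over 8397 genes of the same kind the shares were 23.3% below and 5.56% above, on the scale of library totals.

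**Figure D3:**
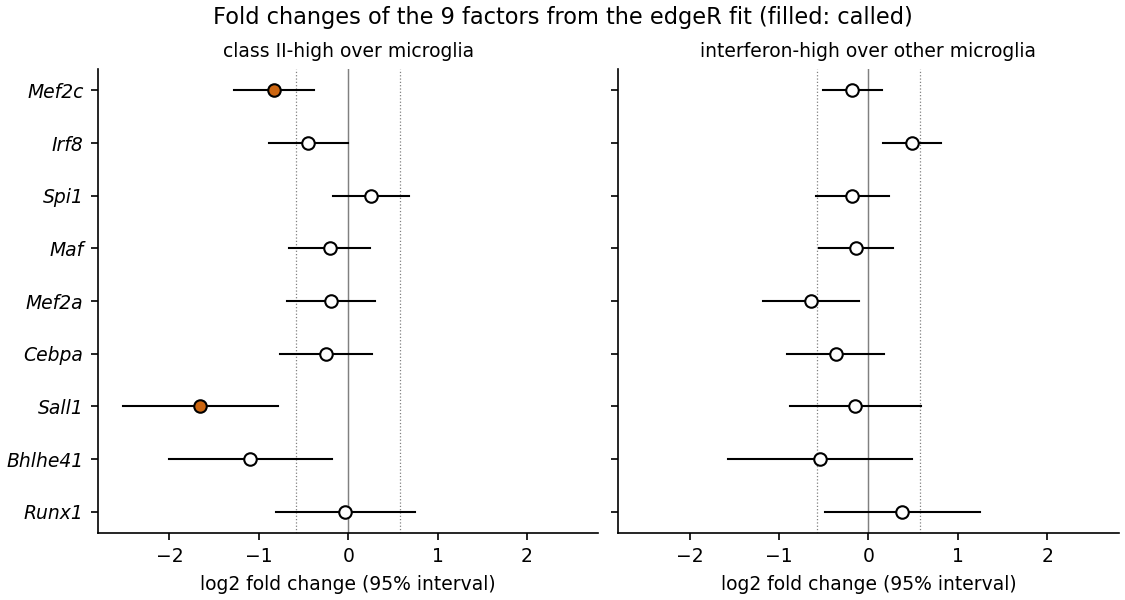
Log2 fold changes (horizontal axes) of the 9 factors from the edgeR fit with 95% intervals, for class II-high cells over microglia (left) and interferon-high cells over other microglia (right). Filled points were called, dotted lines mark the fold threshold, and the filled points are Sall1 and Mef2c on the left.

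Shares of cells gave the same picture for Sall1. At 1000 UMIs per cell a Sall1 UMI was seen in 2 of 66 class II-high cells (3.03%, exact Clopper-Pearson 95% interval 0.369 to 10.5%) and in 1739 of 12671 microglia (13.7%, 13.1 to 14.3%). Median depths before thinning were 3200 to 3693 UMIs per class II-high cell. Bhlhe41 was seen in 2 of 66 cells as well, Mef2c in 24 (36.4%) and Spi1 in 23 (34.8%, interval 23.5 to 47.6%). Irf8, Maf and Mef2a were each seen in 16 (24.2%, interval 14.5 to 36.4%), Cebpa in 12 (18.2%) and Runx1 in 5 (7.58%). In microglia the pooled shares were 61.6% for Mef2c, 52.8% for Irf8, 43.7% for Spi1 and 40.6% for Maf. They were 30.4% for Mef2a, 27.1% for Cebpa, 8.67% for Bhlhe41 and 8.41% for Runx1. These intervals treat cells as independent and cover counting error only. Class II-high cells showed 1.68 ± 0.393 of the 9 factors per cell at this depth (SD, n = 4).

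**Figure D4:**
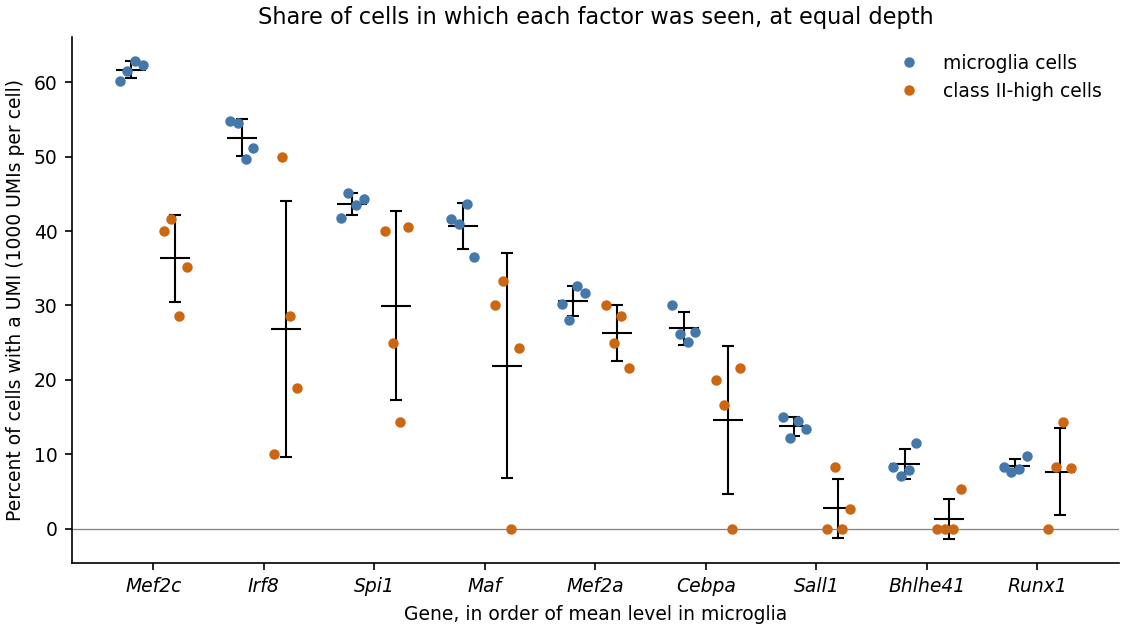
Percent of cells with a UMI of each factor (vertical axis) after each cell was thinned to 1000 UMIs, for the 9 genes in order of level in microglia (horizontal axis). Points are the 4 libraries of microglia (left of each pair) and of class II-high cells (right), and bars the mean ± SD. Sall1 was seen in 13.8% of microglia on average and in 0 to 8.33% of class II-high cells per library.

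The low Sall1 of class II-high cells was set beside the microglial markers that these cells still carried. Pooled over the libraries, Sall1 in class II-high cells was at 25.1% of its microglial CPM (exact Poisson 95% interval 12 to 46.2%, from 10 UMIs). The 9 microglial markers shown lay between 20.1% (P2ry12) and 38.6% (Cx3cr1) of theirs, so Sall1 lay within their range. Mef2c was at 46.5% (38.5 to 55.6%) and Bhlhe41 at 42.4% (21.2 to 75.8%). Irf8, Maf, Mef2a, Cebpa, Runx1 and Spi1 were between 58.6% and 90.3%, above each of these markers. This order is of pooled values on the scale of library totals, and it did not hold within every library. In replicate 1 Irf8 was at 20.4% and Runx1 at 0%, against 37.0% for Cx3cr1. In replicate 2 Maf was at 70.4%, against 72.3% for Cx3cr1. Whether the Sall1 UMIs came from the class II-high cells themselves or from microglial RNA captured with them was not tested.

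**Figure D5:**
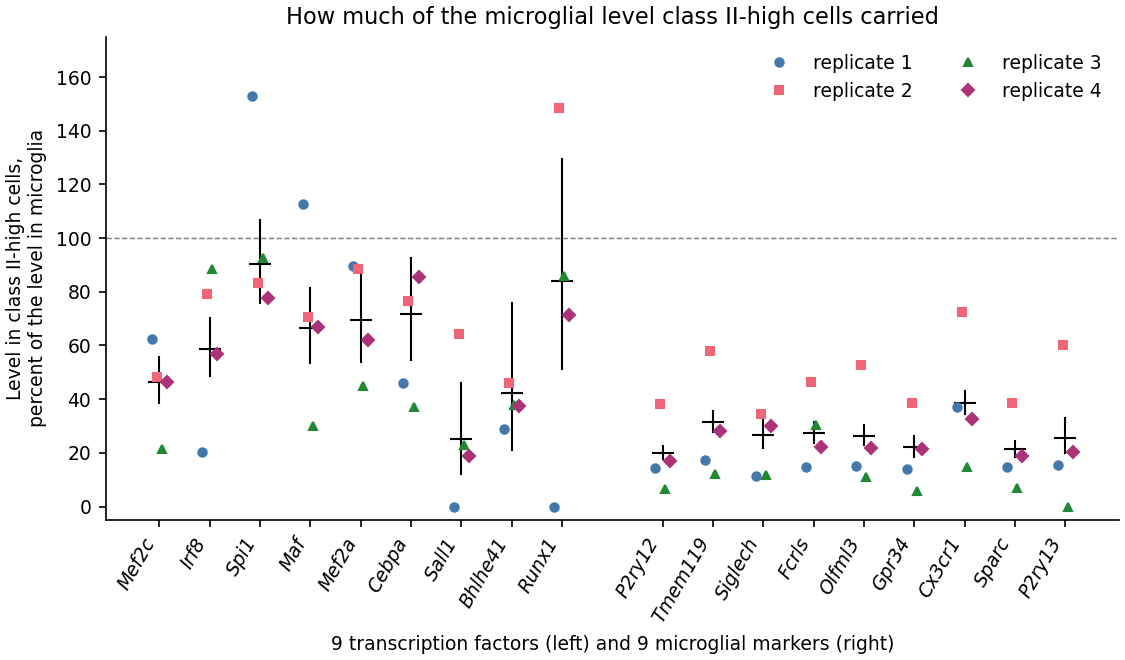
Level in class II-high cells as a percent of the level in microglia of the same library (vertical axis), for the 9 factors and 9 microglial markers (horizontal axis). Coloured points are libraries, black dashes and lines the pooled value with its exact Poisson 95% interval, and the dashed line 100%. By pooled value, Sall1 lies with the markers and Spi1 and Runx1 near the dashed line.

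The class II-high cells were divided by the microglial RNA they carried. Among them 18 cells, 7, 0, 4 and 7 per library, had at most 2 UMIs of P2ry12, Tmem119 and Siglech together. They counted 1 Sall1 UMI of 62081 in all (16.1 CPM), against 9 of 198888 (45.3 CPM) in the other 49. Mef2c was at 226 CPM in the first and 528 CPM in the second, pooled over libraries, and Spi1 at 660 and 488 CPM. In a fit with these 18 cells in place of all 67, over 3 libraries, Mef2c was again called (log2 fold change -1.79, edgeR adjusted p 2.62e-05). Sall1 had a log2 fold change of -2.96 and missed the call (0.127). The median over the 9473 genes tested in this fit was -0.56, beside -0.16 in the fit with all 67 cells. These 18 cells were chosen by few microglial UMIs, and the part of that choice in these levels was not tested.

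Microglia with a few class II UMIs were set beside those with none. In the 2014 microglia with 1 to 9 class II UMIs, Sall1 was at 145 ± 1.42 CPM, against 157 ± 16.1 CPM in the 10921 with none (SD, n = 4). Mef2c was at 925 ± 40.7 and 998 ± 24.8 CPM. Mef2c differed between these cells by more than the larger of both SDs, and the other 8 factors, Sall1 included, by less. These SDs are between libraries and do not measure the difference within a library. In replicates 1 to 4, Mef2c was at 887, 910, 982 and 920 CPM with 1 to 9 class II UMIs. With none it was at 977, 977, 1018 and 1022 CPM. Sall1 was lower with 1 to 9 class II UMIs in replicates 1, 3 and 4 and higher in replicate 2. The cells with 1 to 9 class II UMIs numbered 378, 447, 282 and 907 in replicates 1 to 4. Their median depths were 2076.5, 3210, 2376.5 and 2979 UMIs, against 1883.5, 2900, 2169 and 2711 in the cells with none. No test was made of this split.

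The relatives of the 9 factors were read from the same fit. Of 40 listed relatives 26 were tested. In class II-high cells 3 of them were called higher and 5 lower, beside 5.4% and 2.52% of all genes tested. Their median log2 fold change was 0.07, beside -0.16 over all genes tested. Sall3 (55.8 ± 6.04 CPM in microglia) was lower, with 2 UMIs in all class II-high cells against 1832 in microglia and an edgeR adjusted p of 0.0327. The ETS factors Ets1 (log2 fold change -2.65) and Fli1 (-1.09) and the CEBP partner Cebpg (-0.95) were lower as well. Cebpb, an inflammatory CEBP gene, was higher (log2 fold change 1.11, edgeR adjusted p 2.21e-05), as was the interferon-induced Irf7 (26 UMIs in class II-high cells). Runx3 counted 12 UMIs in the 67 class II-high cells and 5 in all 12935 microglia. Runx3 was tested only because its class II-high sums passed the low-count filter, so its place among the 3 higher relatives follows from that filter and is a description. Spib and Spic, the ETS genes closest to Spi1, counted 0 and 1 UMI in microglia, and Bhlhe40, the sister gene of Bhlhe41, counted 10 UMIs.

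Signals and cofactors upstream of these factors were listed in the same way. Of 22 genes 20 were tested, and 2 were called higher and 3 lower in class II-high cells, beside 5.4% and 2.52% of all genes tested (median log2 fold change -0.28, against -0.16 over all genes). The lower ones were Csf1r, the receptor for CSF1 and IL-34 (log2 fold change -0.97), the TGF-beta receptor Tgfbr1 (-0.95) and the TGF-beta feedback gene Smad7 (-1.66). Klf2 and Klf4, Krüppel-like factors of macrophages and monocytes, were higher (3.52 and 3.54). Klf2 also varied between the microglial libraries, with a mean of 48.4 ± 48.1 CPM.

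Of 20 genes known to depend on the factors 19 were tested, and 13 were called lower and 3 higher, beside 2.52% and 5.4% of all genes tested (median log2 fold change -1.35, against -0.16 over all genes). The list holds all 10 genes of the microglial marker list. Of the 9 tested genes outside that marker list, 3 were lower (Csf1r, Trem2 and Slc2a5, at -0.97, -0.99 and -1.74), 3 higher and 3 not called, with a median of -0.39. The higher ones were Lyz2 (5.02), Mrc1 (3.95) and Csf2ra (1.65), of which Lyz2 is also on the monocyte and Mrc1 on the border macrophage marker list.

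Interferon-high microglia were compared with the other microglia as a check of a state within the type. They were the 42 microglia with 5 or more UMIs of Ifit1, Ifit2, Ifit3, Isg15, Rsad2 and Oasl2 together (16, 13, 7 and 6 per library), and those genes chose the cells. None of the 9 factors was called by edgeR or DESeq2, and 2 (Irf8 and Mef2a) had an unadjusted edgeR p under 0.05. The microglial markers together reached 36090 ± 1304 CPM in these cells and the border macrophage markers 2607 ± 4149 CPM (range 392 to 8823), and the part of the latter in the results was not tested. Of 9421 genes tested 117 were called (1.24%) by edgeR, 110 higher (1.17%) and 7 lower (0.0743%), and 528 had an unadjusted p under 0.05. DESeq2 called 104. Irf8, itself an interferon-inducible gene, was at 837, 1048, 1652 and 866 CPM, against 808, 815, 696 and 735 CPM in the other microglia. It was higher in 4 of 4 libraries, but the difference missed the threshold (log2 fold change 0.49, SE 0.17, 95% interval 0.16 to 0.81, unadjusted p 0.00318 and adjusted p 0.177 by edgeR). With 10 or more interferon UMIs as the limit (21 cells), Irf8 was called (0.85, edgeR adjusted p 0.0185). That was 1 of 16 alternatives, and it was not called in the other 15. Over the 16 alternatives its log2 fold change ranged from 0.088 to 0.85.

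Mef2a was at 288, 219, 261 and 153 CPM in interferon-high cells, below the other microglia in 4 of 4 libraries. Its log2 fold change of -0.64 (SE 0.28, interval -1.18 to -0.10) had an edgeR adjusted p of 0.620. Under TMM over all genes tested, where 86 genes were called higher and 125 lower around a median of -0.51, edgeR called Mef2a (-1.04, adjusted p 0.00992) and Mef2c (-0.59, 0.0387). Sall1 had 17 UMIs there and a log2 fold change of -0.15 (interval -0.88 to 0.59). The other 6 factors had log2 fold changes between -0.54 and 0.38. Among the relatives, Irf7 (log2 fold change 6.63) and Irf1 (2.33), the classic interferon-response members of the IRF family, were the only ones called. None of the 19 target genes and none of the 20 upstream genes tested passed both thresholds, although the microglial markers P2ry12 (log2 fold change -0.52) and Gpr34 (-0.45) passed on adjusted p.

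For each factor the gene with the most similar pattern was sought among 2840 genes at a mean of 50 CPM or more, by Pearson's r of log2(CPM + 1) over the 8 sums (4 libraries by 2 classes). The closest gene was Dnajb6 for Sall1 (r = 0.995), Chchd3 for Spi1 (0.975), Higd2a for Irf8 (0.991), Lpxn for Maf (0.99) and Klf3 for Mef2a (0.982). It was Eif3j1 for Mef2c (0.993), Sdhd for Runx1 (0.999), Pik3r1 for Bhlhe41 (0.981) and Dnajb9 for Cebpa (0.995). Sall1 and Runx1 counted 0 UMIs in the class II-high sum of replicate 1. On the log2 scale 1 such point can dominate r, and its part was not tested. The points share libraries and cell classes, so these values are a description, and the most similar genes have no role in common with the factors that was tested here.

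Some genes overlap the members in the annotation. Antisense genes share 440 exon bases with Maf (Gm15655), 302 with Mef2a (Lysmd4), 106 with Runx1 (Gm26626) and 51 with Cebpa, and counted 40, 207, 0 and 5 UMIs in all microglia. Whether the counting used strand is not given in the sources used here. Sall1, Spi1, Mef2c and Bhlhe41 have no overlapping gene in the table, and Gm20388, which spans Irf8 on the same strand, shares 0 exon bases with it.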

How the data were processed

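Single-cell libraries were made by the authors with the 10x Genomics 3′ version 2 kit, and the deposited values are UMI counts per gene and cell, counted with Cell Ranger 2.2.0 on mm10 (GRCm38) and a filtered Ensembl annotation, per the labels and methods. Values were not normalised. Doublets were not called, and the 1% of cells with most UMIs was left out as an alternative. Counts were summed per cell class and library. Genes passing filterByExpr (minimum count 10) were tested with edgeR 4.0.16 (R 4.3.3) by glmQLFTest with library as a block, and Benjamini-Hochberg adjustment over all genes. TMM factors were computed between both classes pooled over libraries, on genes with an expected count of 10 or more (3565 and 1954 genes), since TMM on the sparse sums was biased when tested on simulated data. DESeq2 1.42.0 was an alternative. Named genes were all 9 members, their called relatives, upstream genes and targets, and the most abundant relatives. A relative and a marker are not reported here by name. Cebpd (0 rows) was left out. Itgam (2 rows) was left out of the level summaries but stayed in the tests. It was counted once among the target genes tested, by 1 of its rows (log2 fold change -0.52 in class II-high cells, not called). Members and lists were chosen with earlier results of these data known. Coordinates are from GENCODE M21 and promoters from RefSeq. Exact intervals of levels and shares and the floor of 3 counts cover counting error only. Intervals of fold changes and p-values come from edgeR's fit, which shares its estimate of spread across all genes tested. They therefore do not measure a gene's own spread between the mice alone.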

Additional observations from a re-analysis of the deposited data

Results flagged for a closer look

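Of 70 sets of 4 libraries examined by Dixon's range test, 4 had a library apart, and chance gives about 1 in 20. Runx1 in microglia was highest in replicate 4 (ratio of gap to range 0.957). Runx1 in class II-high cells was lowest in replicate 1, where it counted 0 UMIs (0.889 on the log2 scale, 0.581 in CPM). The share of class II-high cells with a Bhlhe41 UMI at 1000 UMIs per cell was above 0 in replicate 4 only (1.0), from 2 cells. The share of class II-high cells among all cells was highest in replicate 4 (0.943). Replicate 4 supplied 38 of the 67 class II-high cells on which the Sall1 and Mef2c comparisons rest. The part of these differences between libraries in the results was not tested beyond leaving each library out.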

How the results depend on the processing

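Depth limits most of the contrasts, since class II-high cells held 260969 UMIs in all and interferon-high cells 121906, so factors with few UMIs (Sall1, Bhlhe41, Runx1) have wide intervals. The genes called between class II-high cells and microglia numbered 758, and 450 with the 18 cells poor in microglial RNA, 299 with cells thinned to 1000 UMIs and 389 (without replicate 4) to 753 with 1 library left out. Between interferon-high and other microglia 117 were called, 57 after thinning, 77 (without replicate 1) to 100 with 1 library left out and 211 under TMM over all genes tested, a setting added after the data were seen. DESeq2 called 579 and 104 genes. Without the replicate block the counts were 948 and 133, and no factor changed its call. Sall1 was called in 16 of 19 alternatives and Mef2c in 14. Bhlhe41 was called with 20 or more class II UMIs as the limit (-1.69, edgeR adjusted p 0.0337) and Irf8 after thinning (-1.22, 0.0417). Factors that were not called changed sign in some settings, and the cause was not tested. For class II-high cells Spi1 was at -0.10 under TMM over all genes tested, -0.053 with library totals alone, -0.25 after thinning and -0.11 without the cells with most UMIs. Runx1 was at 0.058 without the replicate block, -0.38 to 0.20 with 1 library left out (above 0 without replicate 1 or 4), 0.012 with at least 1000 genes per cell and 0.36 without the cells with most UMIs. For interferon-high cells Sall1 was at -0.33 to 0.19 with 1 library left out (above 0 without replicate 1) and 0.035 with 10 or more interferon UMIs, Maf at 0.11 and Bhlhe41 at 0.10 with 3 or more, Bhlhe41 at 0.028 after thinning and Runx1 at -0.014 under TMM over all genes tested. The summed level of the factors stayed between 3899 and 3969 CPM in all settings. A library apart was found for Runx1 in all settings but thinning, which gave 0 factors. The share of microglia with a UMI, averaged over the factors, was 31.9%, and 49.7% at 2000 UMIs per cell and 54.2% without thinning.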
